A study of Mus musculus with 48 samples.

Results

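The experiment described here is the comparison of Setd1b conditional knockout (cKO) with control in RNA of the whole hippocampal CA region, chosen by the sample titles. It comprised 12 RNA-seq libraries of 48 libraries in the series, 6 labelled cKO and 6 labelled control. The labels give C57BL/6J mice of 4 to 6 months for both groups, Setd1b cKO or Control as the genotype, and no treatment. They name neither the Cre driver nor what the controls carry, and they do not say whether the libraries came from separate animals, so p-values measure the spread between these libraries. The published Setd1b cKO strain carries Cre under a Camk2a promoter, which is active in excitatory neurons of the forebrain, so that other cells of the tissue would keep the gene. RNA was isolated with Trizol from whole tissue and made into TruSeq RNA v2 libraries, which therefore hold RNA of neurons, glia and vessels together. Neuron RNA (3 libraries labelled cKO, 3 labelled control) and neuronal H3K4me3 peaks (4 of each) from the same region served as other readouts of the same genes.

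Setd1b is one of the catalytic subunits of the COMPASS family of complexes, which methylate histone H3 at lysine 4. The trimethylated form, H3K4me3, lies at the starts of transcribed genes and is broad at genes that give a cell type its identity. The CA region holds the pyramidal neurons of the hippocampus (CA1, CA2 and CA3), which serve spatial and episodic memory. CA3 neurons receive input from granule cells of the neighbouring dentate gyrus. In whole tissue a change in bulk RNA can come from fewer cells of a type or from less RNA per cell, and these cannot be told apart.

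The 12 libraries held 14.9 to 20.1 M counted reads, and 3.41 to 7.05% of the reads fell on mitochondrially encoded genes, with overlapping ranges in both genotypes. Cytosolic ribosomal protein genes took 0.222 to 0.314% of the reads, and 5 of 13 mitochondrially encoded protein genes (mt-Atp6, mt-Atp8, mt-Co2, mt-Co3 and mt-Nd4l) were listed at 0 in every library. The markers of the labelled tissue were present: the 8 excitatory neuron markers summed to 6515 to 7766 CPM (counts scaled to a common library size) and the 7 CA1 markers to 900.0 to 992.9 CPM. Replicates 1 to 3 of each group were sequenced in lane 1 and replicates 4 to 6 in lane 2, per the names of the deposited files. No gene of 15362 passed edgeR's test for a genotype difference that differed between the lanes, 801 did so at an unadjusted p under 0.05, and no other tool was run for this question.

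Setd1b itself (ENSMUSG00000038384) had higher, not lower, counts in the libraries labelled cKO. It stood at 29.2 to 54.6 CPM (median 37.8) in the libraries labelled control and at 53.1 to 68.0 CPM (median 57.4) in the libraries labelled cKO. The groups overlapped by 1 control-labelled library, and the gene was called higher in cKO-labelled libraries by 0.59 on the log2 scale (SE 0.11, edgeR quasi-likelihood test, Benjamini-Hochberg adjusted p = 0.00415). In neuron RNA edgeR did not call Setd1b (log2 fold change 0.25, SE 0.13, adjusted p = 0.361). Counts over a whole gene do not show the deleted exons alone, so the direction of every value below rests on the labels. No other gene of the 11 catalytic H3K4 methyltransferases was called, and neither was any of 14 tested COMPASS subunits, 9 H3K4 demethylases or 9 histone acetyltransferases. Of 11 histone deacetylases 1 was called, Hdac9, which fell from 43.8 to 54.5 CPM to 31.7 to 40.2 CPM (log2 fold change -0.47, SE 0.07, adjusted p = 0.000668). At an unadjusted p under 0.05 the first 4 of these lists held 1 higher gene, Setd1b, then none, none and 1 higher gene.

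Across all genes more were lower than higher, and the lower ones differed by more. Of 15362 tested genes edgeR called 640 (4.17%) at the 0.05 threshold for the adjusted p. The lower genes numbered 428 (2.79%) and the higher genes 212 (1.38%). Without control replicate 3 the counts were 329 and 138. The called lower genes had a median log2 fold change of -0.51, and 80 of them changed at least 2-fold. The higher genes had a median of 0.34, and 13 changed at least 2-fold, while the median over all tested genes was -0.003. Over the 12 libraries 296 tested genes were lower without any overlap between the genotypes (1.93%) and 177 were higher (1.15%), and 258 and 129 of these were among the called genes. Each of the 640 genes had the same direction in lane 1 alone and in lane 2 alone. With 3 libraries against 3, 141 of the lower and 49 of the higher genes were called again in lane 1, and 170 and 36 in lane 2.

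**Figure D1:**
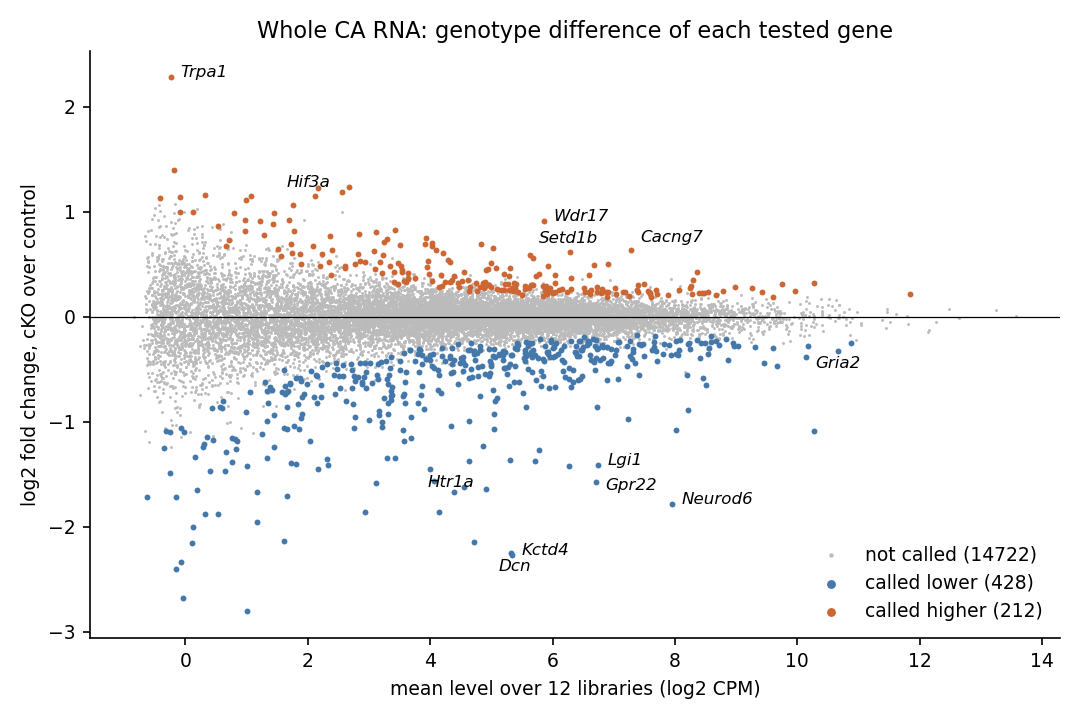
Log2 fold change, cKO-labelled over control-labelled (vertical axis), against the mean level over the 12 libraries in log2 CPM (horizontal axis), 1 point per tested gene. The 428 genes called lower reach further from 0 than the 212 called higher, and Neurod6, Gpr22 and Lgi1 were both abundant and strongly lower.

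Among genes with established names, a mean log2 CPM from 1 upwards and no overlap between the genotypes, the 15 with the largest falls included a transcription factor of pyramidal neurons, 4 receptors and several markers of hippocampal subfields. Kctd4, of a family of proteins with a potassium channel tetramerisation domain, stood at 59.5 to 71.3 CPM (median 68.2) in control-labelled and 11 to 15.5 CPM (median 14.3) in cKO-labelled libraries. It was 4.83-fold lower (log2 fold change -2.27, SE 0.08, adjusted p = 1.87e-12), the smallest adjusted p of all tested genes. The ranges lay far apart and were narrow in both groups.

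Dcn, which encodes the matrix proteoglycan decorin and marks ventral CA1 neurons as well as fibroblasts, fell from 45.7 to 82.1 CPM (median 64.4) to 10.9 to 16.1 CPM (median 14.7). Its log2 fold change was -2.25 (SE 0.13, adjusted p = 2.63e-09). Lrrc10b, a leucine-rich repeat gene, fell from a median of 43.2 CPM (39.1 to 46.2) to 9.56 CPM (6.45 to 12.8), a log2 fold change of -2.14 (SE 0.12). Neurod6, a basic helix-loop-helix transcription factor of pyramidal neurons, was the most abundant of these 15 genes. It held 329 to 456 CPM (median 388) in control-labelled and 81.5 to 164 CPM (median 111) in cKO-labelled libraries, 3.44-fold lower (log2 fold change -1.78, SE 0.14, adjusted p = 1.49e-07). As the rule of choice required, no cKO-labelled library reached the lowest control-labelled one in any of these genes.

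The 4 receptors among these 15 genes fell about alike. Htr1a, the serotonin 1A receptor, fell from 38.5 to 54.3 CPM (median 44.4) to 12.6 to 16.9 CPM (median 14.1), a log2 fold change of -1.64 (SE 0.09, adjusted p = 1.39e-09). Sstr4, a somatostatin receptor, fell from a median of 25.6 to 8.48 CPM (log2 fold change -1.57), and Npbwr1, a receptor of neuropeptides B and W, from 4.65 to 1.40 CPM (log2 fold change -1.71). The orphan receptor Gpr22 fell from 147 to 166.5 CPM (median 157) to 31.5 to 67.6 CPM (median 58.1), with a log2 fold change of -1.57. All 4 receptors were separated between the genotypes in the 12 libraries, as the rule of choice required.

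The other genes of these 15 were Lct (lactase, a dentate granule marker in this tissue), Spink8 (a CA1 marker), Slc9a4 (a sodium-proton exchanger), Tmem215, Fxyd7 (a regulator of the sodium pump), Thsd4 and Iyd (iodotyrosine deiodinase, a CA3 marker). Their log2 fold changes ran from -1.86 for Lct to -1.42 for Thsd4 and for Iyd. Thsd4 and Lgi1 joined Kctd4, Htr1a and Lrrc10b as the 5 genes with the smallest adjusted p. Lgi1, a secreted synaptic protein whose loss causes epilepsy, fell from 143 to 168 CPM (median 158) to 53.1 to 62.6 CPM (median 59.0), a log2 fold change of -1.41 (SE 0.06, adjusted p = 1.4e-11). Among genes above 1000 CPM in control-labelled libraries, Gpm6a stood out, a membrane glycoprotein of neurons singled out after its values were seen. It fell from 1673 to 788 CPM on average (log2 fold change -1.09, SE 0.07, adjusted p = 2.14e-08).

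**Figure D2:**
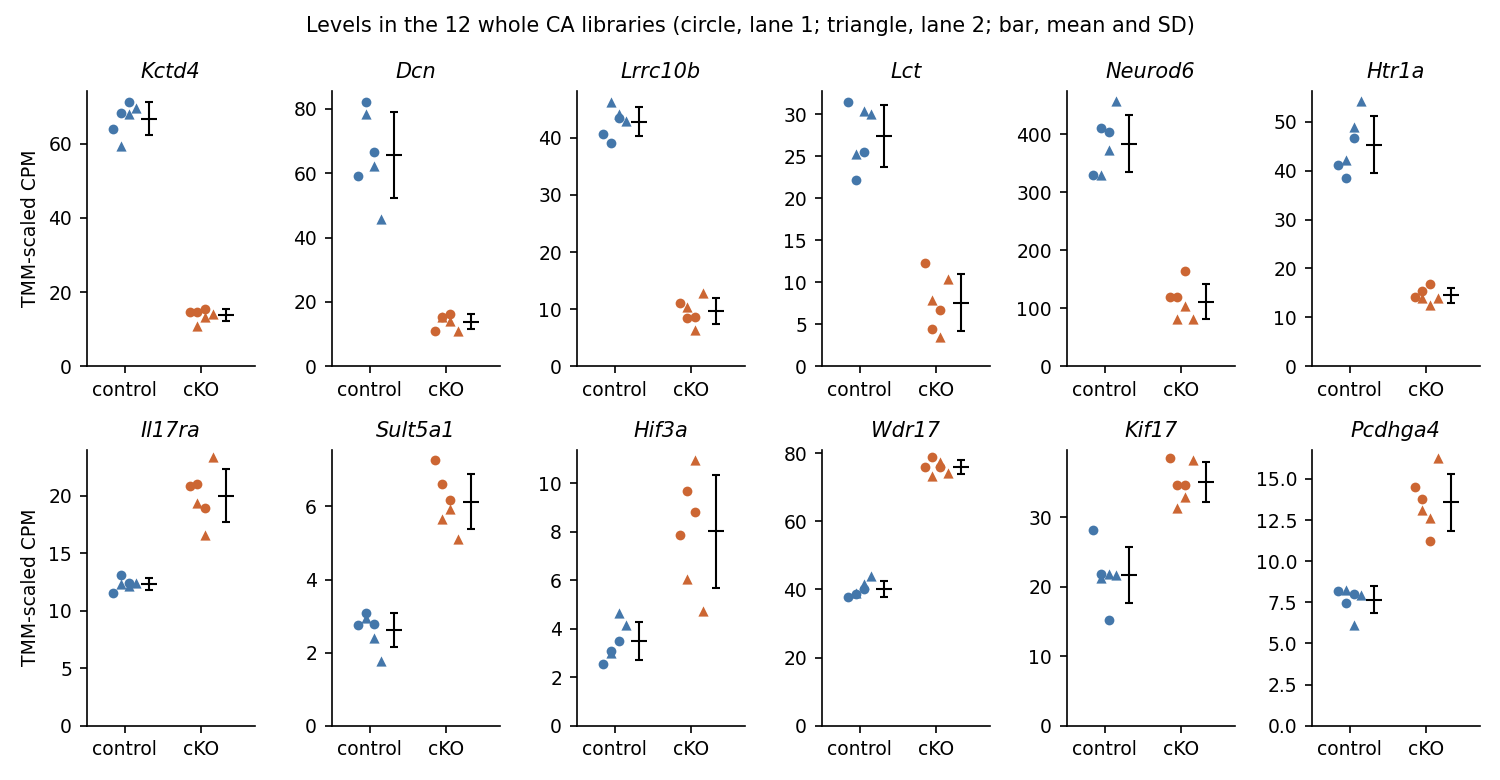
TMM-scaled CPM (vertical axes, each starting at 0) of 6 genes called lower and 6 called higher in the 12 libraries, grouped by labelled genotype (horizontal axis). Circles are lane 1, triangles lane 2, and the black bar is the mean with the SD of 6 libraries. In each of the 12 genes the genotypes do not overlap, as the rule that chose these genes required.

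The largest of the 15 rises chosen by the same rule were of genes at low levels in the tissue. Sult5a1, a sulfotransferase, stood at 1.78 to 3.07 CPM (median 2.77) in control-labelled and 5.11 to 7.28 CPM (median 6.06) in cKO-labelled libraries, a log2 fold change of 1.22 (SE 0.14, adjusted p = 1.67e-05). Its groups did not overlap, as the rule required. Hif3a, a hypoxia-inducible factor that glucocorticoids also induce, rose from a median of 3.29 to 8.34 CPM (log2 fold change 1.19). Sptbn5, a spectrin (log2 fold change 1.15), and Myo3b, an unconventional myosin (log2 fold change 0.99), had control-labelled medians of 1.25 and 1.73 CPM. These 4 genes lay under 6 CPM in every control-labelled library.

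Wdr17, a WD repeat gene, showed the most regular rise. It held 37.7 to 44.1 CPM (median 39.6) in control-labelled and 73.2 to 79.0 CPM (median 76.0) in cKO-labelled libraries, 1.89-fold higher (log2 fold change 0.92, SE 0.05, adjusted p = 2.63e-09), the smallest adjusted p among the higher genes. Dus4l, a tRNA dihydrouridine synthase (log2 fold change 0.79), P2rx3, an ATP-gated channel of sensory neurons (0.78), Sebox, a homeobox gene (0.74), and Il17ra, the interleukin 17 receptor (0.70), rose by less, and the noncoding RNA Dalir by about as much (0.92). Kif17, a dendritic and ciliary kinesin that carries NMDA receptors, rose from 15.2 to 28.2 CPM (median 21.8) to 31.3 to 38.5 CPM (median 34.7), a log2 fold change of 0.69 (SE 0.10). The protocadherins Pcdhga4, Pcdhga8 and Pcdhga9 were also among the 15. The largest called rise of all, by 2.28 on the log2 scale, was that of the irritant-sensing channel Trpa1, which held 0.122 to 0.356 CPM in control-labelled and 0.596 to 1.68 CPM in cKO-labelled libraries and so lay under the level required of the 15.

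The number of CG dinucleotides ahead of the gene start differed among these genes. The 250 bases before the RefSeq start (GRCm38.p6) are shown for 4 lower genes and 1 higher gene with a single listed start, chosen after values were seen to span a range of CG counts, with each CG, the site of DNA methylation in vertebrates, in capitals. Lrrc10b (chr19:10457448-10457697, minus strand) held 29 CG, Neurod6 (chr6:55681264-55681513, minus strand) 3, Iyd (chr10:3540024-3540273, plus strand) 5, Htr1a (chr13:105443443-105443692, plus strand) 6 and Hif3a (chr7:17062428-17062677, minus strand) 9. All listed starts had a median of 6 CG in this window, and 92.1% held at least 1. Promoter sequences were listed for 72.2% of the lower and 69.3% of the higher genes, so a comparison of CG content between the groups is void.
Lrrc10b: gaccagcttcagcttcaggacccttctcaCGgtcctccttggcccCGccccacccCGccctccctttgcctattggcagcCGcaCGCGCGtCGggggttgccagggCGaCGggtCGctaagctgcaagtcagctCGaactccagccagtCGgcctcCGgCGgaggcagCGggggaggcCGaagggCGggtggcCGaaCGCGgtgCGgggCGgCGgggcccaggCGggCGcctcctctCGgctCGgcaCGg
Neurod6: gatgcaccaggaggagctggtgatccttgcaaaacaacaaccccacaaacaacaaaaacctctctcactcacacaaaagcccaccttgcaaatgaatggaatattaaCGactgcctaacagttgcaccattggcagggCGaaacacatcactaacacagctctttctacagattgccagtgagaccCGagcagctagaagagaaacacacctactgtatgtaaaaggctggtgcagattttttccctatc
Iyd: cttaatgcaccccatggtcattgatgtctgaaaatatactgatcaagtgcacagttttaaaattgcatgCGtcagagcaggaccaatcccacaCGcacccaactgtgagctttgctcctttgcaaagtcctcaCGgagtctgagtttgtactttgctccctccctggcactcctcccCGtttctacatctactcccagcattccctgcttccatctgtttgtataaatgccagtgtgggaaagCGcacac
Htr1a: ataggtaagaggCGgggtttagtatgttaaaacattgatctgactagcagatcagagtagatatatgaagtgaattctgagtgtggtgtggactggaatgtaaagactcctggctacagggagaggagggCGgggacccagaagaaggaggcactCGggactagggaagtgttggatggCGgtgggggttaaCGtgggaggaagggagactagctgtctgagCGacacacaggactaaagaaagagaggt
Hif3a: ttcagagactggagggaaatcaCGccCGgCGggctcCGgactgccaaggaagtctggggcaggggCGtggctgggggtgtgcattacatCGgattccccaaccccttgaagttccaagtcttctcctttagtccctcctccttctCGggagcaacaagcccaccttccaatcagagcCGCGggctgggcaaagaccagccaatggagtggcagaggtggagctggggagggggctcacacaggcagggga

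Among gene models with predicted or Riken names 39 of 1499 tested were lower (2.60%) and 17 higher (1.13%), shares close to those over all genes. The largest called fall of all was that of 9430092D12Rik (log2 fold change -2.805), from 2.67 to 4.41 CPM to 0.278 to 0.711 CPM, just under the level required. Above that level the lower ones with the largest changes were 9430053O09Rik (log2 fold change -2.14), D030068K23Rik (-1.95) and 4921539H07Rik (-1.86), and the higher ones 1700086O06Rik (0.88), Gm37233 (0.81) and 2700046G09Rik (0.70). The call of 2700046G09Rik was lost without control replicate 2 (adjusted p = 0.0553) or without cKO replicate 2. The count of higher ones was 11 without cKO replicate 1.

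Many receptors of neuromodulators fell. The counts of this and the following lists stand beside 2.79% lower and 1.38% higher over all tested genes. Among 39 tested receptors of amines and acetylcholine, 9 were lower (23.1%) and 1 higher (2.56%), with a list median of -0.13. The serotonin receptors Htr1a, Htr2a (log2 fold change -0.82), Htr1b (-0.76), Htr5b (-0.45) and Htr4 (-0.32) fell, as did the adrenergic receptor Adra2a (-0.60), the dopamine receptor Drd1 (-0.63) and the muscarinic receptors Chrm5 (-0.82) and Chrm3 (-0.28). The muscarinic receptor Chrm4 was higher (0.48). Among 47 tested receptors of peptides and hormones, a list chosen after values were seen, 15 were lower and none higher, with a list median of -0.20. At an unadjusted p under 0.05, 22 were lower and 2 higher, and DESeq2 called 16 lower and none higher.

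The falling peptide receptors bind several modulators of memory and emotion. Npy2r, a neuropeptide Y receptor, fell from 71.0 to 81.7 CPM (median 75.4) to 25.1 to 36.8 CPM (median 28.6), a log2 fold change of -1.37 (SE 0.08, adjusted p = 1.86e-09). Oxtr, the oxytocin receptor, fell from 13.7 to 17.99 CPM to 5.54 to 9.28 CPM (log2 fold change -1.08). Sstr3 (-0.77), Mas1 (-0.80), Rxfp1 (-1.35), Mc4r (-1.36), Trhr (-1.40), Avpr1b (-2.0) and Npsr1 (-2.33) were also lower without overlap. Avpr1b and Npsr1 lay under the mean level that the choice of the largest falls required. Of 49 tested orphan receptors, likewise listed after values were seen, 6 were lower, Gpr22 first, and 1 higher, with a list median of -0.02. The number lower was 3 without control replicate 3 or without control replicate 5.

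Ionotropic receptors changed by less, and in both directions for AMPA receptors. Gria2, the subunit that makes AMPA receptors calcium-impermeable, fell from 1126 to 1359 CPM (median 1290) to 817 to 1075 CPM (median 1028), a log2 fold change of -0.38 (SE 0.07, adjusted p = 0.00272). Of 16 tested AMPA receptor subunits and auxiliary proteins 4 were lower and 2 higher, with a median of -0.08. The auxiliary subunits Cacng5 (-0.53), Shisa6 (-0.36) and Cacng8 (-0.33) fell, while Cacng7 rose from 100.4 to 147 CPM to 160 to 215 CPM (log2 fold change 0.64) and Cnih3 by 0.50. Gria1, with a log2 fold change of -0.14 (adjusted p = 0.174), was not called.

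Of 6 tested NMDA receptor subunits 2 were lower, Grin3a (-0.33) and Grin2a (-0.25), of 7 kainate receptor genes 2, Grik4 (-0.42) and Neto1 (-0.37), of 7 metabotropic glutamate receptors 1, Grm7 (-0.28), and of 12 GABA-A receptor subunits 1, Gabra5 (-0.36), a subunit of extrasynaptic receptors in pyramidal cells. None of these 4 lists held a higher gene. Grin2a and Grm7 lost the call in 8 and 6 of the fits that left out 1 library, with adjusted p up to 0.0931 without control replicate 2 and up to 0.0803 without control replicate 3.

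Among 75 tested potassium channel genes 7 were lower and 1 higher, with a median of -0.07. Kcnv1, a silent modifier subunit (-0.61), Kcnn3, a calcium-activated channel (-0.44), and Kcnab1, an auxiliary subunit (-0.34), were lower, and the G protein-gated Kcnj9 was higher (0.40). The number lower was 4 without control replicate 3 or without control replicate 5. Among 28 sodium and calcium channel genes the T-type calcium channel Cacna1g (-0.67) and the sodium channel subunit Scn3b (-0.56) fell, and none rose.

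Synaptic adhesion molecules, which hold the pre- and postsynaptic membranes together, fell in part. Of 42 tested synaptic adhesion genes 9 were lower and none higher, with a median of -0.11. At an unadjusted p under 0.05, 15 were lower and 2 higher, and DESeq2 called 10 lower and 2 higher. The genes with the smallest adjusted p were the leucine-rich repeat proteins Lrrc4c (-0.51), Flrt3 (-0.55) and Slitrk3 (-0.29) and the contactin-associated protein Cntnap5b (-0.47). The postsynaptic organisers Lrrtm1 (-0.38), Lrrtm2 (-0.60) and Lrrtm4 (-0.31) and the cadherin Cdh9 (-0.38) were lower too. Of 43 presynaptic release genes 3 were lower, Synpr (-0.67), Erc2 (-0.36) and Rph3a (-0.30), and none higher, with a median of -0.01. Of 21 postsynaptic scaffold genes Homer3 was lower (-0.49) and Pick1 higher (0.27), 4.76% each way. Pick1 lost the call in 8 of the fits that left out 1 library, with adjusted p up to 0.0793 without control replicate 3.

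Guidance and matrix genes followed in smaller numbers. Of 65 tested axon guidance genes 5 were lower (7.69%) and 1 higher (1.54%), among them Sema5a (-0.52) and Epha6 (-0.39). The number lower was 3 without control replicate 2, 3 or 5 or without cKO replicate 6. Nrp1, a semaphorin and VEGF receptor from a list chosen after values were seen, fell from 131 to 152.5 CPM to 87.0 to 98.1 CPM (log2 fold change -0.60, adjusted p = 1.07e-06). Of 38 collagens Col11a1 (-1.0), Col6a1 (-1.07) and Col12a1 (-0.55) were lower, and of 9 small leucine-rich proteoglycans only Dcn. Of 32 Wnt pathway genes the receptor Fzd10 (-1.07) and the ligand Wnt2 (-0.61) were lower, 6.25% of the list. Serpins, protease inhibitors listed after values were seen, had 5 of 16 lower, led by Serpina3n (-1.27).

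Among the clustered protocadherins more genes rose than fell. These genes give each neuron a surface identity through a choice among many promoters in tandem. Of 52 tested, 9 were higher and 1 lower, and the list median was 0.08. The higher ones were variable exons of the gamma cluster: Pcdhga4 (log2 fold change 0.83), Pcdhga8 (0.69), Pcdhga9 (0.69), Pcdhga7 (0.67), Pcdhgb6 (0.64), Pcdhgb2 (0.63), Pcdhga6 (0.60), Pcdhga5 (0.53) and Pcdhgb4 (0.46). Pcdhga4 stood at 6.11 to 8.26 CPM (median 7.97) in control-labelled and 11.2 to 16.3 CPM (median 13.4) in cKO-labelled libraries. The lower one was Pcdhgc5 (-0.27), a C-type gene at the far end of the same cluster. Gamma genes share their last exons and overlap on the genome, and how the deposited counts divided such reads is not given in the sources used here, so the values of single members are uncertain.

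Signalling ligands and enzymes changed both ways. Of 23 tested neuropeptides and neurotrophins the opioid precursors Pdyn (-1.05) and Penk (-0.64) were lower, and Cort (1.06) and the granin Scg2 (0.22) higher. No higher gene was left in this list without control replicate 3, 4, 5 or 6 or without cKO replicate 1. Of 55 genes of calcium and cAMP signalling 3 were lower (5.45%) and 2 higher (3.64%). The lower ones were the protein kinases C Prkcd (-0.75) and Prkca (-0.28) and the calcium sensor Hpca (-0.25). The calcium release channel Itpr1 (0.19) was among the higher ones. Penk and Drd1 are also striatal markers and Prkcd a thalamic one. The striatum list summed to 65.7 to 80.01 CPM in control-labelled and 65.2 to 77.4 CPM in cKO-labelled libraries, with 2 of 7 lower. The thalamus list summed to 40.6 to 62.2 and 29.2 to 40.9 CPM, with 1 of 4 tested lower. Prkcd itself, at medians of 35.9 and 19.8 CPM, made up most of the thalamus sum, which was not taken without it. The part of neighbouring tissue in these 3 genes was not tested.

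Glucocorticoid-responsive genes had 4 of 19 higher and none lower, with a median of 0.24. The 4 were Hif3a, Per1 (0.40), Gpd1 (0.24) and the lipid droplet protein Plin4 (1.15), while the classical targets Fkbp5 (-0.10, adjusted p = 0.464), Sgk1 (0.36, adjusted p = 0.0781) and Tsc22d3 (0.20, adjusted p = 0.176) were not called. The number higher was 2 without control replicate 2, without cKO replicate 1 or without cKO replicate 3. Ciliary transport genes, listed after values were seen, had 4 of 26 higher and none lower (Kif17, Ift81, Ift122 and Ift43), a count of 2 in 7 of the fits that left out 1 library (control replicate 2, 5 or 6, or cKO replicate 2, 4, 5 or 6).

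General programmes of the cell held few calls or none. None of 77 nuclear oxidative phosphorylation genes, 83 ribosomal protein genes, 15 genes of the unfolded protein response, 15 hypoxia-responsive genes or 22 interferon response genes was called, with list medians between -0.06 and 0.03. At an unadjusted p under 0.05 these lists held 0, 1, 0, 4 and 1 lower and 3, 1, 0, 1 and 0 higher genes. Of 31 immediate early genes only Per1 was called, and the summed level of the list overlapped between the genotypes, at 825 to 1235 CPM in control-labelled and 832 to 1217 CPM in cKO-labelled libraries. Each of 19 cholesterol synthesis genes had a negative log2 fold change, with a median of -0.10, and 1, Hmgcs1, was called (-0.26), a call lost without control replicate 3, 4, 5 or 6 or cKO replicate 1, 4 or 6 (adjusted p up to 0.0808).

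**Figure D3:**
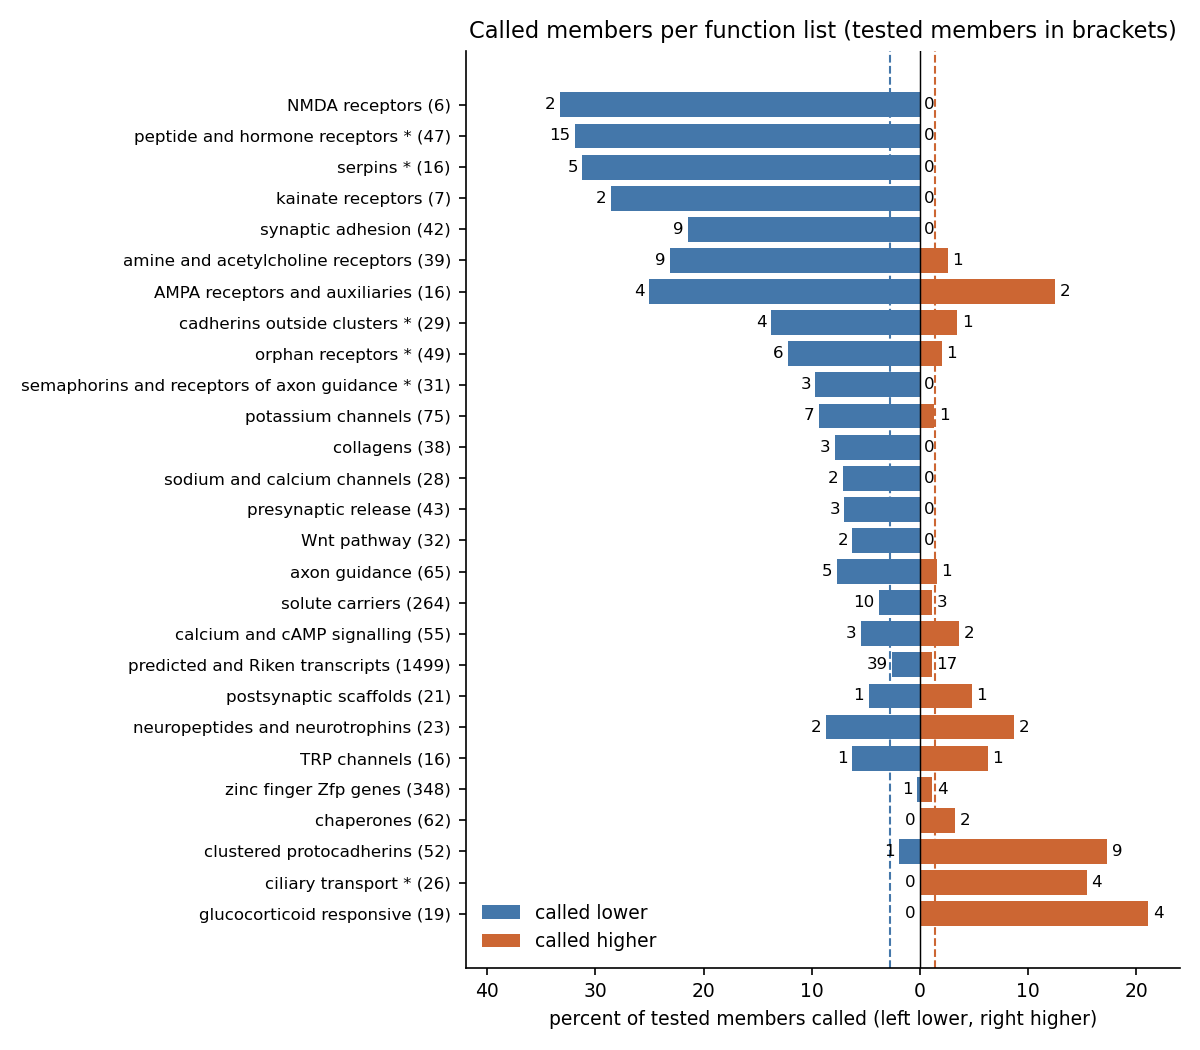
Percent of the tested members of each function list called lower (left) and higher (right), with the counts at the bar ends, the tested members in brackets and dashed lines at the share over all tested genes. Lists with at least 2 called members are shown, and an asterisk marks a list chosen after values were seen. Peptide receptors, synaptic adhesion and amine receptors lie mostly on the left, clustered protocadherins and glucocorticoid-responsive genes on the right.

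Cell type markers were among the lower genes and not among the higher ones. Of 180 tested genes in a cell type marker list 23 were lower (12.8%) and none higher, against 2.79% and 1.38% of all tested genes. Markers made up 5.37% of the 428 lower genes, and their lists were chosen with earlier results of these data known. At an unadjusted p under 0.05 some markers were higher, among them 1 excitatory and 1 interneuron marker. The CA3 list summed to 279 to 323 CPM in control-labelled and 216 to 243 CPM in cKO-labelled libraries, with 3 of 5 markers lower: Iyd (-1.42), Cpne4 (-0.47) and Grik4 (-0.42). The CA2 list summed to 293 to 332 against 239 to 287 CPM, with 3 of 7 lower: Amigo2 (-0.70), Pcp4 (-0.74) and Cacng5 (-0.53). Neither list overlapped between the genotypes in its sum, nor did CA3 without Iyd (273 to 316 against 213 to 241 CPM). The called genes Cpne4 and Grik4, at means of 172 and 80.9 CPM in control-labelled libraries, made up most of the CA3 sum. No sum was taken without all the called members of either list, so these sums do not show a shift of the uncalled markers.

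CA1 markers did not move as a group. Their sum was 902 to 980 CPM in control-labelled and 900.0 to 993 CPM in cKO-labelled libraries. Spink8 fell from a median of 32.1 to 9.50 CPM and Wfs1 by 0.43 on the log2 scale, while Fibcd1 (0.08, adjusted p = 0.566), Mpped1 (0.07), Pou3f1 (-0.05) and Man1a (0.01) were not called. The ventral CA1 list summed to 152 to 209 against 92.8 to 124 CPM, but without Dcn the ranges overlapped, at 107 to 127 and 81.9 to 110 CPM. Of 8 pan-excitatory markers only Neurod6 was called, and Slc17a7 (0.16, adjusted p = 0.12) and Camk2a (-0.13, adjusted p = 0.238) were not.

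Dentate granule cell markers lay lower and were the most variable. Their sum was 118 to 151 CPM in control-labelled libraries and 105.6, 46.5, 71.6, 75.5, 49.5 and 87.0 CPM in cKO-labelled replicates 1 to 6. Lct (-1.86), Il16 (-1.37) and Dsp (-0.96) were called, the last of these lost in 9 of the fits that left out 1 library (adjusted p up to 0.0988), and Prox1 (-0.35, adjusted p = 0.145) and C1ql2 (-0.69, adjusted p = 0.433) were not. Without Lct and Il16 the ranges overlapped, at 55.6 to 88.3 and 30.6 to 78.0 CPM. Since the labelled tissue is the CA region, these markers may move with how much dentate tissue a library holds, and their part in the falls of other genes was not tested. Without cKO replicates 2 and 5, the lowest in the sum, 440 genes were called, and 282 of the 428 lower and 124 of the 212 higher genes were called again.

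Markers of other cells mostly overlapped. Interneuron markers summed to 1519 to 1807 CPM in control-labelled and 1489 to 1640 CPM in cKO-labelled libraries, with none of 16 called by edgeR and 2 lower and 1 higher at an unadjusted p under 0.05. Astrocyte markers summed to 7711 to 8599 and 7648 to 8194 CPM, with Aqp4 (-0.38) and Slc4a4 (-0.24) of 16 lower, and oligodendrocyte markers to 4702 to 6698 and 4488 to 6666 CPM, with Ugt8a (-0.36) of 16 lower. Slc4a4 lost the call without control replicate 2 or 3 (adjusted p up to 0.0568) and Ugt8a without control replicate 3 (adjusted p = 0.0511). Microglial markers summed to 537 to 663 and 470 to 571 CPM, and the log2 fold changes of 17 of 18 were negative, with a median of -0.19. Cx3cr1 alone was called (-0.22), in 1 of the 12 fits that left out 1 library.

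Kl and Prlr, 2 of 6 tested choroid plexus markers, fell by 1.04 and 0.64 on the log2 scale. The defining choroid marker Ttr held 5.25 CPM in control-labelled and 4.30 CPM in cKO-labelled libraries on average, 5 of the 10 listed markers lay under 1 CPM, and without Kl the sums overlapped, at 12.6 to 20.8 and 9.28 to 15.6 CPM. Kl was also called lower in neuron RNA (log2 fold change -1.074). Fibroblast markers without Dcn summed to 93.9 to 131 and 106 to 133 CPM and so overlapped. Of the vascular markers only Kdr was called, with a log2 fold change of -0.40.

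**Figure D4:**
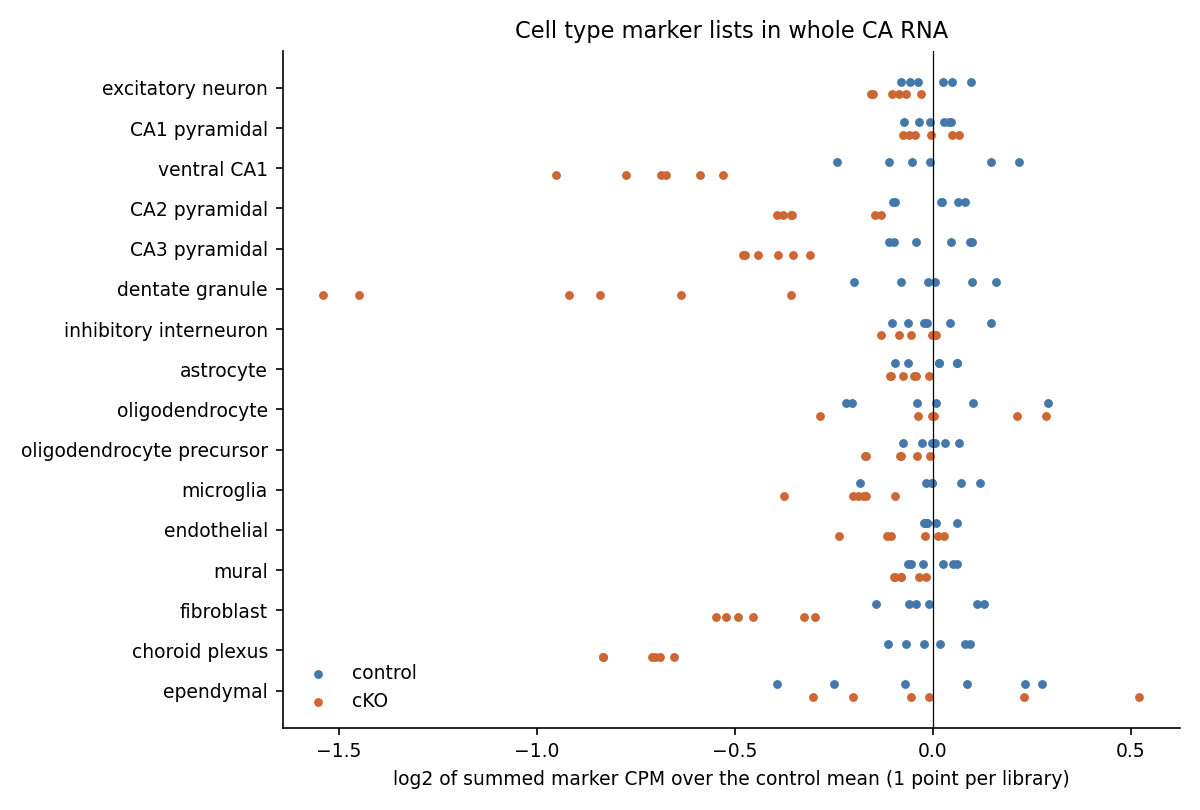
Summed CPM of each cell type marker list in every library, as log2 over the control mean (horizontal axis), with 1 point per library and 1 row per list. The CA2, CA3, ventral CA1, dentate granule, fibroblast and choroid plexus rows are separated between the genotypes, while CA1, interneuron, astrocyte and oligodendrocyte rows overlap. The last 4 of the separated rows overlap once Dcn, Lct with Il16, Dcn or Kl is left out. For CA2 and CA3 no sum was taken without all their called members.

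The log2 ratio of neuron RNA over whole CA RNA was taken between means over the libraries of both genotypes. This ratio had a median of 0.09 over all tested genes, -0.05 over the lower genes and 0.02 over the higher genes. It was above 1 for 21.7% of all tested, 12.4% of the lower and 16.98% of the higher genes. These ratios compare libraries of different material and depth and are given as a description. Mitochondrially encoded genes took 0.00814 to 0.0144% of the reads in neuron libraries and 3.41 to 7.05% in whole CA libraries. The RNA of the 2 materials therefore differed by more than cell type, and what this does to the ratio was not tested. RefSeq gene spans had a median of 24.8 kb over tested genes with a span, 30.8 kb over the 411 lower and 40.6 kb over the 203 higher genes with one.

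Neuron RNA, a separate set of 6 libraries whose animals the labels do not set apart from those of the whole CA libraries, gave the same direction for most of these genes. Of the 428 lower genes 425 were tested there, 396 had log2 fold changes below 0 and 175 were called lower, none higher, where 393 of 19622 tested genes (2.0%) were called lower. Of the 212 higher genes 210 were tested, 189 had log2 fold changes above 0 and 31 were called higher, where 146 genes (0.744%) were. Of all 14967 genes tested in both materials 7640 had neuron log2 fold changes below 0 and 7327 above. Among these 14967 genes 351 were called lower and 111 higher in neuron RNA. The 393 lower and 146 higher neuron genes became 186 and 21 without neuron cKO replicate 1, 207 and 52 without cKO replicate 2, 268 and 43 without control replicate 2, and 233 and 35 without control replicate 3. Kctd4 (-2.56), Lrrc10b (-2.55), Neurod6 (-2.24), Dcn (-1.92), Htr1a (-1.46) and Lgi1 (-1.41) were each called lower in neuron RNA, and Sptbn5 (1.05), Sult5a1 (0.98) and Wdr17 (0.98) higher. Some falls were not called in neurons: Gria2 had a log2 fold change of -0.12 (adjusted p = 0.771) and Gpm6a of -0.75 (adjusted p = 0.0872). The difference itself was called for 28 of 17523 genes (0.16%), among them 7 of the lower genes and none of the higher ones, and material, depth and batch cannot be told apart in it.

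Neuronal H3K4me3 was shorter at many of the genes that fell. The length covered by deposited H3K4me3 peaks within 2000 bp was compared with limma at listed gene starts, where it was shorter in cKO-labelled libraries at 2131 of 14799 genes (14.4%) and longer at 89 (0.601%). At those starts 116 of 283 lower genes with a value were shorter (41.0%). So were 25 of 132 higher (18.9%) and 1764 of 10692 tested genes (16.5%). The starts cover too few of the called genes, so the end of each RefSeq gene with the longer H3K4me3 cover over all 8 libraries was used as well, a measure added after the first was seen. Over 16533 genes compared, 80.8% of these ends lay within 1000 bp of a listed start, so some ends may not be gene starts. At these ends 2262 of 22043 genes were shorter (10.3%) and 146 longer (0.662%). Among genes tested in whole CA RNA, 107 of the 367 lower genes with a value (29.2%) were shorter and none longer, against 27 of 190 higher genes (14.2%) and 1586 of all 13285 (11.9%). The median log2 difference was -0.13 over the lower, -0.05 over the higher and -0.06 over all these genes. The lower genes started from longer cover. At these ends their control-labelled median was 2362 bp, against 2158 bp over the higher and 2193 bp over all genes. The cKO-labelled medians were 2023, 1968 and 2022 bp. At listed starts the control-labelled medians were 2575.5, 2409.5 and 2311 bp in the same order. How far the longer cover bears on the shares above was not tested.

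The strongest falls included genes with a large loss of cover, among them 3 of the genes whose upstream sequence is shown, Lrrc10b, Neurod6 and Iyd. Kctd4 was covered over the whole 4001 bp window in each control-labelled library and over 861 to 1557 bp in cKO-labelled libraries (log2 difference -1.72, adjusted p = 0.00159). Lrrc10b held 3341 to 3612 bp against 1027 to 1087 bp (log2 difference -1.64, adjusted p = 8.17e-07), and Dcn 1391 to 1948 bp against 487 to 695 bp (-1.40, adjusted p = 0.00122). Neurod6 went from 3431 to 3751 bp to 1898 to 2505 bp (-0.63, adjusted p = 0.00525), and Htr1a had a difference of -0.33 (adjusted p = 0.00481). Iyd went from a mean of 794 bp (SD 334) in control-labelled libraries to 44.2 bp (SD 88.5) in cKO-labelled libraries (adjusted p = 0.0123). With an SD above the mean, the cover left at Iyd was uneven among the cKO-labelled libraries. Other strong falls had no such change, with a log2 difference of -0.04 for Lgi1 (adjusted p = 0.525), 0.14 for Thsd4 (adjusted p = 0.0774) and -0.02 for Fxyd7 (adjusted p = 0.755). Among the higher genes Hif3a (0.36, adjusted p = 0.23) and Wdr17 (0.25, adjusted p = 0.433) were not called. The peaks of each genotype were called against 1 input library, so input and genotype cannot be told apart, and the peaks do not measure height.

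**Figure D5:**
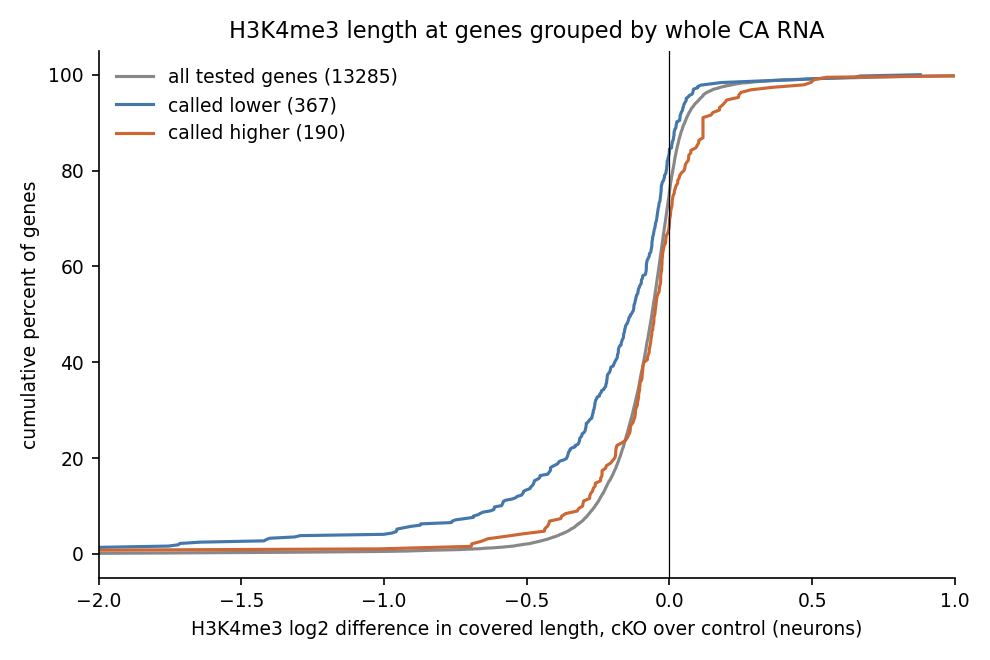
Cumulative percent of genes (vertical axis) by the log2 difference in H3K4me3 covered length, neurons labelled cKO over control (horizontal axis, drawn from -2 to 1), for genes called lower, called higher and all tested in whole CA RNA. The curve of the 367 lower genes lies left of the others, with a median of -0.13 against -0.06 over all 13285.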

How the data were processed

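The deposited files of the 12 whole CA and 6 neuron libraries hold raw read counts per Ensembl gene ID, made by the authors on mm10/GRCm38 with SAMtools among the tools, per the submitters' processing notes; aligner, counter, annotation and strandedness are not given in the sources used here. H3K4me3 peaks were called per library with MACS2 against 1 input per genotype, per the file headers, which give −log10 q-values.

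Counts were tested with edgeR 4.0.16 (R 4.3.3; filterByExpr, TMM, quasi-likelihood test, genotype only), and covered H3K4me3 length, log2(bp + 100), with limma 3.58.1, both tested on simulated data. The threshold for a call was 0.05 for the adjusted p (Benjamini-Hochberg). CPM of single genes were TMM-scaled, marker sums were not. Named were Setd1b, the 15 lower and 15 higher called genes with the largest change that did not overlap between genotypes and reached 1 in mean log2 CPM, 3 predicted models each way, the 5 with the smallest adjusted p, and up to 4 called members of each list. Further called list members, and Gpm6a, Oxtr and uncalled markers, were added after values were seen. A few genes of this rule are not reported here. Members and lists were chosen with earlier results of these data known, and 6 lists after values were seen. Alternatives were DESeq2 1.42.0, other scaling and filters, lane, replicate block and left-out libraries.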

Additional observations from a re-analysis of the deposited data

Results flagged for a closer look

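In groups of 6 libraries 3 of 140 tested sets of values held a library set apart from the others, where chance flags about 1 in 20. Sstr4 stood at 21.04 CPM in control replicate 4, below the other control-labelled libraries. The summed endothelial markers stood at 714.6 CPM in control replicate 1, and the summed thalamic markers at 40.95 CPM in cKO replicate 4, each above the rest of its group.

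The genotype effect differed between whole CA and neuron RNA, by a test of the interaction in edgeR, for 7 of the genes called lower in whole CA. The difference is whole CA minus neuron on the log2 scale. For Npr1, a natriuretic peptide receptor, it was 2.219 (-0.65 in whole CA and -2.87 in neurons, adjusted p = 3.3e-05). Capn3, a calpain, differed by 1.593, Ighm, an immunoglobulin heavy chain, by 1.696, and Thbd, thrombomodulin, by 1.142. Lgi3 differed by 0.7072 and Adamts1, a matrix protease, by 0.7645. In these 6 genes the fall was larger in neurons. Syne1, a nuclear envelope protein, had a difference of -0.5564 and fell more in whole CA (-0.65) than its value in neurons (-0.10). Material, preparation and batch cannot be told apart in these differences.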

How the results depend on the processing

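The 640 genes called in whole CA kept their direction in each alternative that tested them. The count was 657 with DESeq2's size factors in edgeR, 633 with library size alone, 662 without the filter, 683 with lane as a term and 886 with DESeq2 (544 lower, 342 higher). It was 207 with replicates 1 to 3 only and 224 with replicates 4 to 6 only, where fewer libraries entered, and 288 among genes changed by 0.5 or more on the log2 scale. Leaving out 1 library gave 467 to 669, with 322 to 449 lower and 138 to 231 higher genes. Without cKO replicates 2 and 5, an alternative chosen after seeing the data, it was 440. Predicted models aside, 15 lower and 15 higher genes were named for the largest changes above the level limit, without overlap in these same 12 libraries. They kept their call in every one of the 12 fits without 1 library, which that choice favours. Of the 106 other named genes 82 kept theirs.

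The 539 genes called in neuron RNA became 207 to 482 without 1 library, being under 1.5 times fewer only without cKO replicate 3 or control replicate 1. The 28 genes that differed between materials became 69 without the filter and 18 to 25 without 1 neuron library, with 18 without cKO replicate 2 or control replicate 1. The 2220 gene starts with a changed H3K4me3 length became 4650 with a 5000 bp window and 1421 to 2461 without 1 library, the lowest values, 1421 to 1432, without control replicate 2, 3 or 4. The causes were not tested.

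Whether replicate numbers pair the samples was not settled. Same-numbered whole CA libraries correlated in their deviations at -0.08 to 0.29, and number 4 alone matched its own number best. With a replicate block the counts were 839 in whole CA, 327 in neuron RNA (268 lower, 59 higher), 30 between materials and 1307 for H3K4me3 length, and Cx3cr1, Ift122 and Ift43 lost their call. What depth limits was not tested beyond the filters.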
